A study of Mus musculus with 12 samples.

Results

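The genes described here encode the receptors through which neuromodulators and neuropeptides act on neurons and glia. They were chosen by symbol, with no filter on their values but with earlier results of these data known. The group holds the receptors for serotonin, noradrenaline, acetylcholine (muscarinic), dopamine, adenosine, cannabinoids, orexin, neuropeptide Y, somatostatin, opioids, galanin, tachykinins, VIP and PACAP, and those for neurotensin, corticotropin-releasing hormone, melanocortin, oxytocin, cholecystokinin and gastrin-releasing peptide. The mouse annotation holds 69 such genes, 51 of them stand among the 14801 genes of the deposited table, and 46 of these had enough reads to be tested.

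RNA was sequenced from primary cells of the cerebral cortex of mouse fetuses at gestational day 17.5. After 9 days in culture the cells were kept for 24 h in medium without the B27 supplement, which contains thyroid hormone, and then left without hormone or given 10 nM triiodothyronine (T3) for 24 h. Each of 6 wild-type fetuses, called mouse 1 to 6, gave 1 culture without and 1 culture with T3, so the 12 libraries form 6 pairs. Such cultures lack the axons that bring serotonin, noradrenaline, acetylcholine, dopamine and orexin to the cortex from elsewhere in the brain.

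T3 is the active thyroid hormone, which binds nuclear receptors that control the transcription of target genes. Nearly all the receptors of the group sit in the cell membrane and signal through G proteins: receptors coupled to Gs raise cyclic AMP, those coupled to Gi lower it and open potassium channels, and those coupled to Gq activate phospholipase C and release calcium. Htr3a, a serotonin-gated ion channel, is the exception among the genes in the table. In the cortex these receptors set how excitable neurons are and how much transmitter they release.

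A value is in CPM, reads of a gene relative to the size of its library, scaled to the composition of the library by the TMM method. The libraries held 5272092 to 10837895 reads, so that 1 read was worth 0.0911 to 0.186 CPM, and 3 reads, the limit that a count of 0 allows, were 0.273 to 0.557 CPM (counting error only). In 6 of 6 mice the culture with T3 was sequenced more deeply, by 1.03 to 1.67 times, and the part of depth in the results was not tested. Markers of excitatory neurons summed to 1543 to 1779 CPM without and 1468 to 1839 CPM with T3, and those of inhibitory neurons to 1296 to 1424 and 1185 to 1521 CPM. Of 7 tested excitatory markers 1 was higher and 2 lower with T3, and of 9 inhibitory markers none passed. Over all 13663 genes tested 5.52% passed (limma, adjusted p under 0.05), 3.37% higher and 2.14% lower. Markers of neurons in general summed to 7152 to 9232 CPM without and 6694 to 8183 CPM with T3, with 1 of 8 higher and none lower. The 3 sums were higher with T3 in 3, 2 and 1 of 6 mice, and their part in the receptor results was not tested. The culture of mouse 4 without T3 stood apart: muscle genes summed to 1295 CPM there (the myosin gene Myh7 alone to 705.8) against 55.7 to 80.6 CPM in the other 11 libraries, and mural and fibroblast markers to 439.6 CPM against 43.5 to 165.0 CPM. Those markers had 1 of 7 tested genes lower with T3 (Dcn), none higher and a lower sum in 5 of 6 mice, and their part in the receptor results was not tested. With mouse 4 left out, 12 of the 13 receptor calls given here held and that of Drd2 was lost. A further fit left out that library and also took the mouse as a random effect in place of a block. It kept 11 of the 13, and since it changed both choices, its losses of Drd2 and Ntsr1 cannot be put down to the library. Astrocyte markers summed to 885.6 to 2959 CPM without T3 and 1333 to 3498 CPM with it, and markers of the oligodendrocyte lineage to 350.3 to 503.6 and 452.5 to 567.1 CPM. Both sums were higher with T3 in 6 of 6 mice, while 10.8% of all single genes tested moved the same way in 6 of 6. Of their tested markers 5 of 9 and 3 of 9 were higher, against 3.37% of all genes, and none lower. The part of both in the receptor results was not tested. Microglial markers stayed between 3.08 and 10.2 CPM in sum in all 12 libraries, with P2ry12 and Tmem119 not in the table. In RNA from a whole culture, fewer cells of a type and less RNA per cell cannot be told apart.

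Levels spanned a wide range before any hormone was added. Per kilobase of exon, the cannabinoid receptor gene Cnr1 was the highest without T3 at 58.9 CPM, followed by the PACAP receptor gene Adcyap1r1 (40.6), the neurotensin receptor gene Ntsr1 (22.3), the nociceptin receptor gene Oprl1 (19.5) and the adenosine receptor gene Adora1 (19.1). Then came the somatostatin receptor gene Sstr4 (9.76), the muscarinic receptor gene Chrm1 (8.44) and Sstr2 (7.99). By contrast, 21 of the 46 tested genes had a mean under 5 CPM without T3, not corrected for length, and 6 had a mean above 50. Reads of Adora1 may include some from Mybph, which covers 20.1% of its exon bases on the opposite strand and is not in the table, since the library kit does not mark strand. None of the 13 genes that passed the test shares exon bases with another annotated gene.

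**Figure D1:**
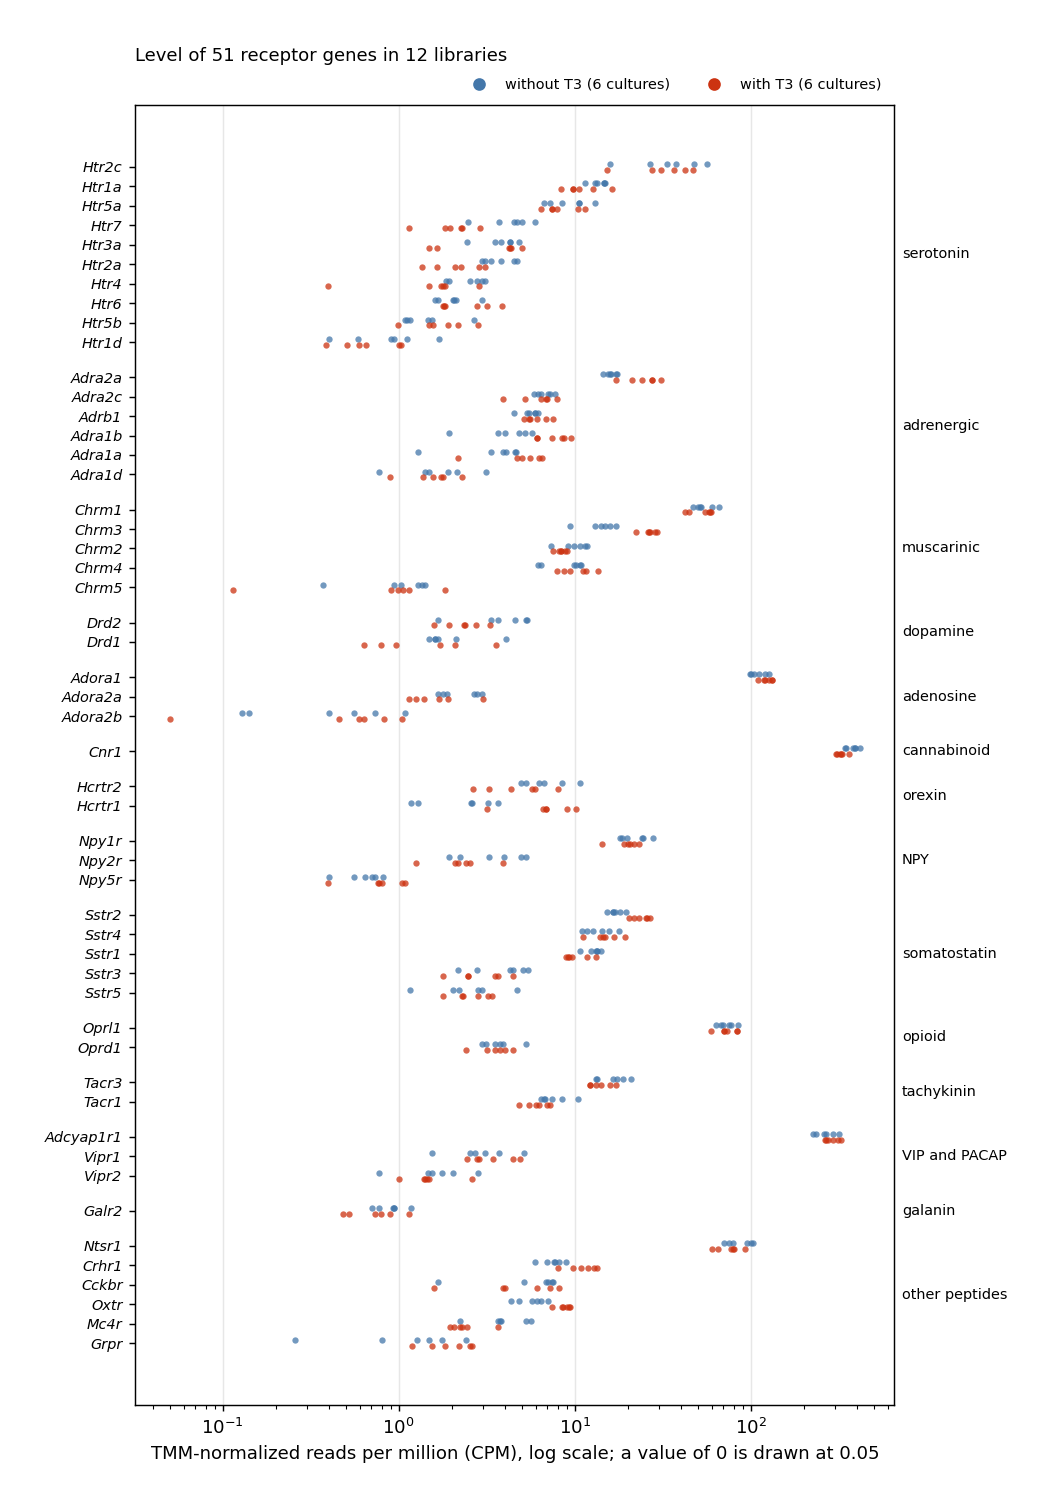
Level of the 51 receptor genes in the table in each of the 12 libraries, grouped by transmitter, in CPM on a log scale. Blue points are the 6 cultures without T3 and red points the 6 cultures with T3; Cnr1 and Adcyap1r1 lie far to the right, and most serotonin, dopamine and galanin receptor genes to the left.

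With T3, 13 of the 46 tested receptor genes changed (limma, adjusted p under 0.05), 7 of them higher and 6 lower. Over all 13663 genes tested 5.52% were called, 3.37% higher and 2.14% lower. All 13 moved the same way in 6 of 6 mice, as did 4 further receptor genes that missed the threshold, Adra1a upward and Sstr1, Tacr1 and Tacr3 downward. Those 17 are 37% of the tested receptor genes, against 10.8% of all genes. Since the group was chosen with earlier results of these data known, such shares are a description only. A direction in 1 mouse can also rest on less than the value of 1 untreated read. Drd2 in mouse 6 went from 1.67 to 1.58 CPM, where 1 read was 0.128 CPM. Mc4r in mouse 4 went from 2.23 to 2.06 CPM, where 1 read was 0.186 CPM. In 4 of the 13, namely Chrm3, Adra1b, Oxtr and Sstr2, every culture with T3 lay above every culture without it; over all genes 1.68% had groups that did not overlap, 1.05% upward and 0.622% downward. Of the 46, 19 had a log2 change above 0 and 27 below, with a median of -0.10, while the median of all genes was 0.0031.

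Changes went in both directions within each class of G protein coupling. Of 15 tested Gq-coupled receptor genes 4 rose and 2 fell, of 19 Gi-coupled genes 2 rose and 2 fell, and of 11 Gs-coupled genes 1 rose and 2 fell. Htr3a, the single channel gene tested, did not pass. Fold changes below are on the scale of log2(CPM + 0.5), which understates the change of genes with few reads. Coordinates are on GRCm38.

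**Figure D2:**
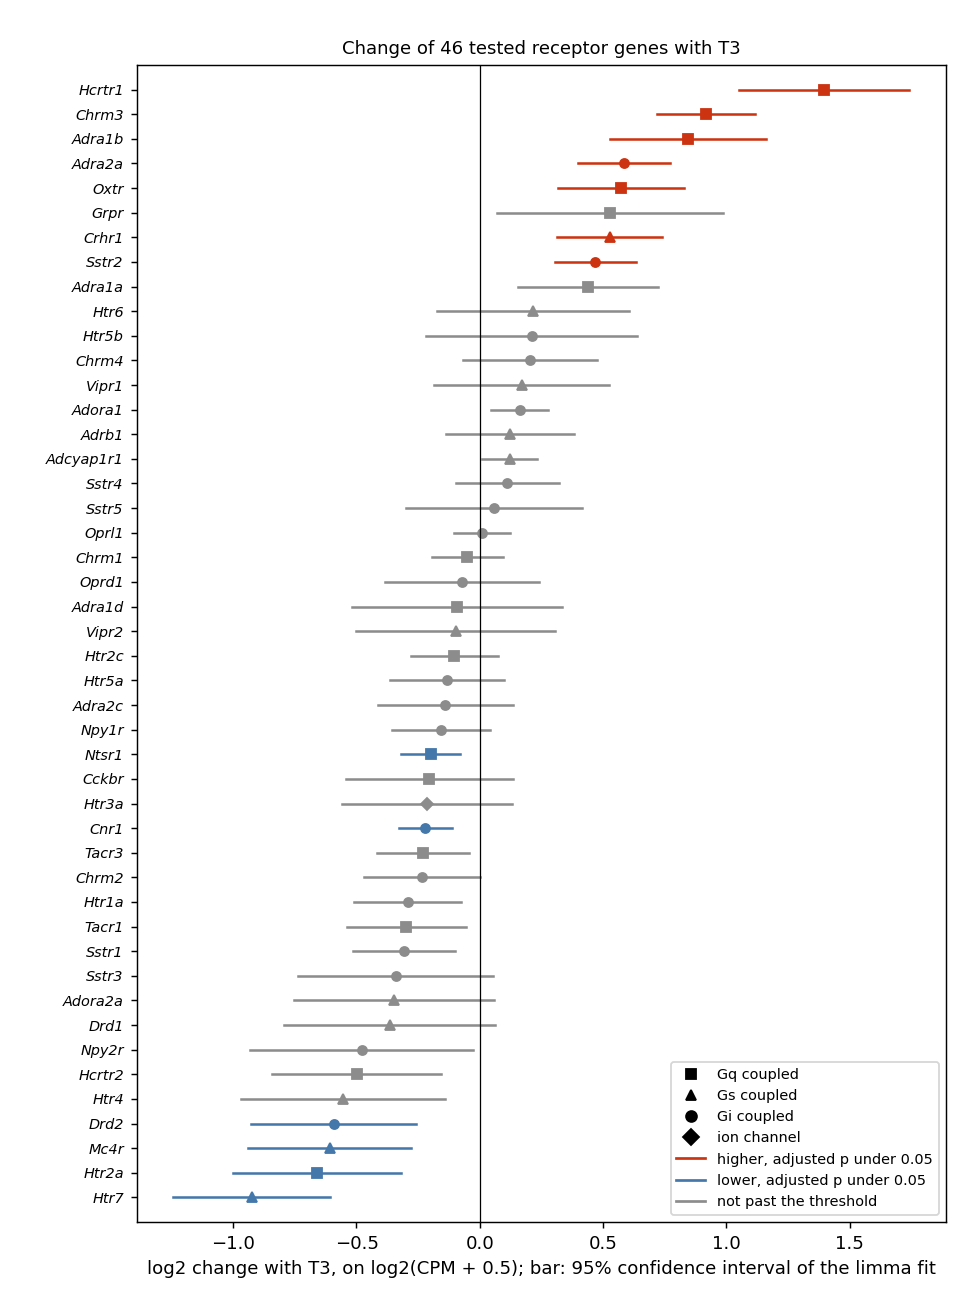
Log2 change with T3 (T3 minus no T3, on log2(CPM + 0.5)) of the 46 tested receptor genes, with its 95% confidence interval from the limma fit; the shape of a point gives the coupling. The 7 genes in red passed the test upward, led by Hcrtr1 at 1.39, and the 6 in blue downward, led by Htr7 at -0.92.

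The largest increase of a receptor gene was that of Hcrtr1 (chr4:130130217-130139359, minus strand), a Gq-coupled receptor for the wake-promoting peptide orexin. Without T3 it lay between 1.17 and 3.67 CPM with a median of 2.58, and with T3 between 3.16 and 10.1 CPM with a median of 6.89. The culture of mouse 6 with T3 was the low one, under the untreated cultures of mice 1 and 3, and the other 5 cultures with T3 lay above every untreated one. The rise was 2.63-fold (95% confidence interval 2.07 to 3.34, adjusted p = 1.31e-05), and the log2 change in single mice ran from 0.98 to 2.15. Hcrtr1 had few reads without T3, 8 to 26 per library, and the change of 2.15 was that of mouse 2, with 8 untreated reads. Hcrtr2, which encodes the other orexin receptor, did not pass: its mean was 7.08 ± 2.20 CPM without and 4.99 ± 1.99 CPM with T3 (SD, n = 6), with a log2 change of -0.50 ± 0.16 (SE, adjusted p = 0.0859) and a lower value in 5 of 6 mice. It passed when mouse 2, the mouse in which it was higher, was left out (-0.67, adjusted p = 0.0161). Per kilobase of exon, Hcrtr1 made up 44.2% ± 14.8 of the summed orexin receptor level without T3 and 75.8% ± 10.2 with it (SD, n = 6), higher in 6 of 6 mice.

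Among the adrenergic receptors, which bind noradrenaline and adrenaline, 2 of 6 tested genes rose and none fell. Adra1b (chr11:43774606-43901210, minus strand) encodes a Gq-coupled receptor. Its untreated cultures spanned 1.93 to 5.71 CPM (median 4.45) and its cultures with T3 6.13 to 9.50 CPM (median 7.96), without overlap. It rose 1.79-fold (interval 1.44 to 2.23, adjusted p = 0.00142), with log2 changes from 0.09 in mouse 2 to 1.45 in mouse 6. The reads of Adra1b ran from 15 to 96 per library, with the 15 in the untreated culture of mouse 6. Adra2a (chr19:54044151-54048982, plus strand), a Gi-coupled autoreceptor on noradrenergic axons that is also found on cortical neurons, went from 14.5 to 17.5 CPM (median 16) to 17.2 to 31.0 CPM (median 25.8). The groups overlapped only through mouse 6, whose culture with T3 at 17.2 CPM lay under the untreated culture of mouse 3. Adra2a rose 1.5-fold (interval 1.32 to 1.71, adjusted p = 0.000268).

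Adra1a, another Gq-coupled adrenergic receptor gene, had 3.64 ± 1.25 CPM without and 5.05 ± 1.57 CPM with T3 and was higher in 6 of 6 mice, but missed the threshold (log2 change 0.44 ± 0.14, adjusted p = 0.0643). The remaining 3 were Adrb1, a Gs-coupled receptor gene (log2 change 0.12), Adra2c (-0.14) and Adra1d (-0.09), with adjusted p from 0.659 to 0.874. The 6 genes summed to 38.1 ± 4.34 CPM without and 51.5 ± 8.45 CPM with T3, higher in 6 of 6 mice. Per exon length, Adra2a was the leading adrenergic receptor transcript in both groups, at 35.2% ± 4.47 and 40.9% ± 3.64 of the summed level, while the shares of Adra2c and Adrb1 were lower with T3 in 6 of 6 mice. Shares are parts of the same sum, so those of unchanged genes fall when others rise. In CPM, Adra2c was higher with T3 in 2 of 6 mice and Adrb1 in 3 of 6. Adra2b and Adrb3 are not in the table, which lists genes at 1 CPM or more in at least 2 libraries.

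Of 4 tested muscarinic receptor genes 1 rose. Chrm3 (chr13:9875486-10360847, minus strand) encodes a Gq-coupled receptor for acetylcholine. Its values were 9.46 to 17.1 CPM without T3 (median 14.4) and 22.5 to 29.2 CPM with T3 (median 26.6). The gap between the groups was wide, and the lowest culture with T3 still exceeded the highest without. The rise was 1.89-fold (interval 1.64 to 2.16) and had the smallest adjusted p of the receptor genes, 2.66e-06. The other tested subtypes moved less: Chrm1, also Gq-coupled, changed by -0.05 on the log2 scale (95% interval -0.19 to 0.09), and the Gi-coupled Chrm2 and Chrm4 by -0.23 and 0.20, with adjusted p from 0.289 to 0.778. Per exon length the share of Chrm3 in the muscarinic sum was 11.7% ± 2.15 without and 19.8% ± 1.94 with T3, higher in 6 of 6 mice, and that of Chrm1 43.7% ± 1.74 and 37.6% ± 1.55, lower in 6 of 6. Chrm5 had 1 to 20 reads per library and was not tested.

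**Figure D3:**
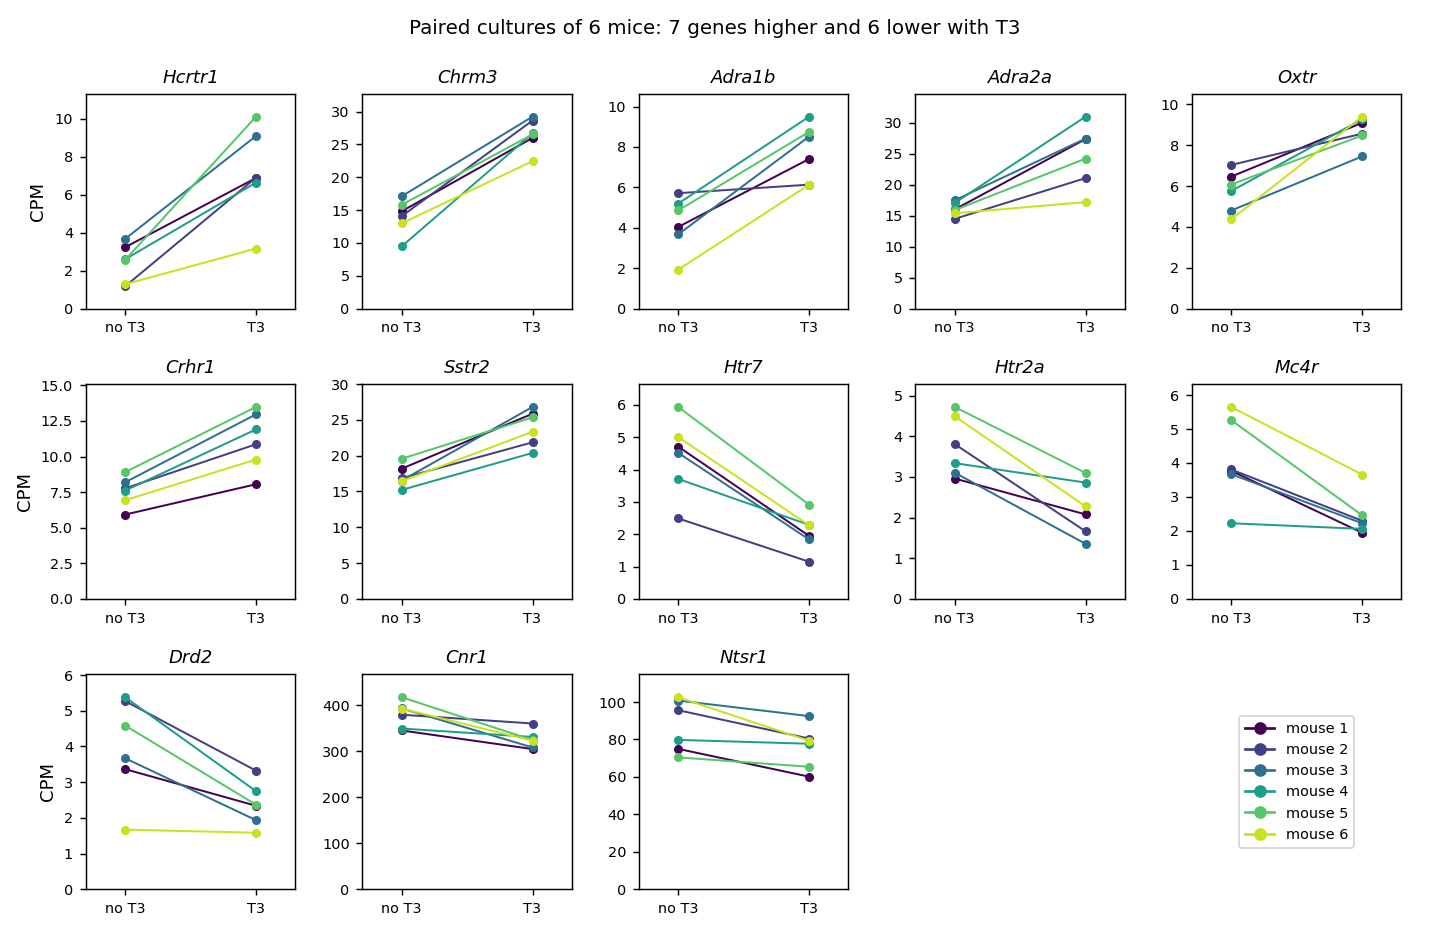
CPM of the 13 receptor genes that passed the test, in the cultures without and with T3 of 6 mice; each line joins the 2 cultures of 1 mouse and each vertical axis starts at 0. All lines of the first 7 genes go up and all lines of the last 6 go down, by little in some mice, as for Drd2 in mouse 6 (1.67 and 1.58 CPM).

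Serotonin receptor genes went the other way where they moved: of 9 tested, 2 fell and none rose, and 7 had a log2 change below 0. Htr7 (chr19:35958734-36057507, minus strand), which encodes a Gs-coupled receptor, lay between 2.49 and 5.94 CPM without T3 (median 4.61) and between 1.15 and 2.92 CPM with T3 (median 2.11). Only the untreated culture of mouse 2, at 2.49 CPM, reached into the range of the treated cultures. Htr7 fell 1.90-fold (log2 change -0.92 ± 0.15, adjusted p = 0.000621). Htr2a (chr14:74640840-74709494, plus strand), the Gq-coupled receptor gene known as the target of classical psychedelics, had 2.96 to 4.72 CPM without T3 (median 3.57) and 1.35 to 3.10 CPM with T3 (median 2.18). The ranges met at mouse 1 without T3 and mouse 5 with it. Htr2a fell 1.58-fold (log2 change -0.66 ± 0.16, adjusted p = 0.0189). Both rest on few reads, 9 to 44 per library for Htr7 and 13 to 35 for Htr2a. The call of Htr2a was lost without mouse 2, 3 or 6 (adjusted p 0.0655, 0.0840 and 0.0693) and with DESeq2 (0.145), while that of Htr7 held under every alternative that was run.

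In CPM, not corrected for length, the most abundant serotonin receptor transcript was Htr2c, a Gq-coupled receptor gene. It had 36.3 ± 14.5 CPM without and 33.2 ± 11.3 CPM with T3 (log2 change -0.10, adjusted p = 0.602). Per exon length its mean share of the serotonin receptor sum was 25.1% without and 26.9% with T3, against 20.7% and 19.7% for Htr1a. Htr1a had the larger share in both cultures of mouse 6, in mouse 4 without T3 and in mouse 3 with it. Htr2c differed more between mice than with hormone. Mouse 6 was low in both cultures, at 15.8 and 15.2 CPM, and the other mice spanned 26.9 to 56.5 and 27.5 to 46.8 CPM. Htr2c is known to be abundant in the choroid plexus. The markers of choroid plexus and ependyma summed, in the untreated cultures of mice 1 to 6, to 415.6, 177.7, 10.4, 162.0, 135.9 and 19.9 CPM, where Htr2c was at 47.5, 33.5, 37.7, 26.9, 56.5 and 15.8 CPM. In the cultures with T3 of mice 1 to 6 the markers summed to 328.4, 189.7, 13.1, 207.8, 190.5 and 56.5 CPM. Htr2c was at 46.8, 36.6, 27.5, 31.0, 42.2 and 15.2 CPM there. Mouse 6, low in Htr2c, was low in these markers too. Mouse 3 was low in the markers in both cultures, and its Htr2c, at 37.7 CPM without T3, was at 27.5 CPM with it, above that of mouse 6 only. The part of these cells in the level of Htr2c was not tested. Of the Gi-coupled receptor genes, Htr1a, an autoreceptor gene that cortical neurons also express, had 13.7 ± 1.33 and 11.3 ± 2.88 CPM (log2 change -0.29, adjusted p = 0.121, lower in 5 of 6 mice), and Htr5a 9.43 ± 2.39 and 8.51 ± 1.97 CPM (-0.13). Htr4, which is Gs-coupled, had a log2 change of -0.55 with 4 to 22 reads per library (adjusted p = 0.123). Htr3a (-0.21), Htr5b (0.21) and the Gs-coupled Htr6 (0.21) had adjusted p from 0.572 to 0.672. The 10 serotonin receptor genes in the table summed to 78.5 ± 19.0 CPM without and 67.5 ± 14.2 CPM with T3, lower in 6 of 6 mice. In mouse 4 the sum was 64.2 CPM without and 63.3 CPM with T3. The largest part of the sum was Htr2c, which did not pass and was higher with T3 in 2 of 6 mice. Htr1b, Htr1f, Htr2b and Htr3b are not in the table, and Htr1d had 3 to 12 reads per library and was not tested.

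Dopamine receptor genes were scarce, as Drd3, Drd4 and Drd5 are not in the table. Drd2 (chr9:49340627-49408177, plus strand), a Gi-coupled receptor gene, had 1.67 to 5.38 CPM without T3 (median 4.13) and 1.58 to 3.32 CPM with T3 (median 2.35). Mouse 6 was low in both cultures, and the other 5 untreated cultures lay above all treated ones. Drd2 fell 1.51-fold (log2 change -0.59 ± 0.16, adjusted p = 0.0318), on 13 to 36 reads per library. Its call was lost without mouse 2, 3, 4 or 5 (adjusted p from 0.0717 to 0.115) and with DESeq2 (0.185). Drd1, the Gs-coupled partner, had 2.09 ± 0.98 and 1.62 ± 1.1 CPM and did not pass (log2 change -0.37, adjusted p = 0.386). Of 8 markers of striatal projection neurons, Drd2 was the only one past the test, and their summed level was 57.9 to 78.3 CPM without and 53.5 to 72.7 CPM with T3, lower in 5 of 6 mice.

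Cnr1 (chr4:33924593-33948831, plus strand), the Gi-coupled receptor through which endocannabinoids reduce transmitter release, was the most abundant gene of the group in both conditions. It had 345.4 to 417.8 CPM without T3 (median 386.4) and 305.0 to 360.5 CPM with T3 (median 323.8). Mouse 2 with T3 lay above mice 1 and 4 without it, and the remaining treated cultures lay under all untreated ones. Cnr1 fell 1.17-fold (log2 change -0.22 ± 0.05, adjusted p = 0.0113), on 1884 to 3562 reads per library. The call was lost without mouse 3 (-0.20, adjusted p = 0.0842) or mouse 5 (-0.19, adjusted p = 0.0502), and without trend and robust estimation in the fit (0.126). Adora1, the Gi-coupled adenosine receptor gene, went from 110.7 ± 11.6 to 123.6 ± 8.66 CPM without passing (log2 change 0.16, adjusted p = 0.105, higher in 5 of 6 mice), but it passed when mouse 1 was left out (adjusted p = 0.0393). Adora2a, which is Gs-coupled, had a log2 change of -0.35 (adjusted p = 0.385). Adora2b had at most 9 reads in a library and was not tested, and Adora3 is not in the table.

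Among the peptide receptors other than orexin's, 3 rose, while over all genes tested 3.37% were called higher. They were 1 of 5 tested somatostatin receptor genes and 2 of 6 tested genes outside the named peptide families (Cckbr, Crhr1, Grpr, Mc4r, Ntsr1 and Oxtr). Oxtr (chr6:112473683-112489943, minus strand) encodes the Gq-coupled oxytocin receptor. It had 4.37 to 7.03 CPM without T3 (median 5.91) and 7.45 to 9.40 CPM with T3 (median 8.83). The groups did not overlap, and mouse 6, the lowest without T3, was the highest with it. Oxtr rose 1.49-fold (interval 1.25 to 1.78, adjusted p = 0.00641), a call lost with DESeq2 (adjusted p = 0.0509). Crhr1 (chr11:104132855-104175523, plus strand), the Gs-coupled receptor gene for corticotropin-releasing hormone, went from 5.92 to 8.91 CPM (median 7.69) to 8.05 to 13.5 CPM (median 11.4). The lowest treated culture, that of mouse 1, lay under the untreated cultures of mice 3 and 5, but mouse 1 was also the lowest without T3. The mice differed little in how far Crhr1 moved: the log2 changes ran from 0.41 to 0.63, with an SD of 0.091 over the 6 mice, and it rose 1.44-fold (interval 1.24 to 1.67, adjusted p = 0.00276).

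Sstr2 (chr11:113619342-113626028, plus strand), a Gi-coupled receptor gene for somatostatin, the peptide of a class of cortical interneurons, had 15.2 to 19.6 CPM without T3 (median 16.7) and 20.4 to 26.8 CPM with T3 (median 24.3). No treated culture fell into the untreated range. The rise was 1.38-fold (interval 1.24 to 1.55, adjusted p = 0.000703). Sstr1 was lower in 6 of 6 mice, at 12.8 ± 1.16 and 10.4 ± 1.76 CPM, and did not pass (log2 change -0.31 ± 0.10, adjusted p = 0.0778). Sstr4, Sstr5 and Sstr3 had log2 changes of 0.11, 0.06 and -0.34, with adjusted p from 0.381 to 0.911. Per exon length, the share of Sstr2 in the somatostatin receptor sum was 31.0% ± 3.41 without and 39.4% ± 3.16 with T3, higher in 6 of 6 mice, and that of Sstr1 24.3% ± 2.21 and 17.8% ± 1.69, lower in 6 of 6. Sstr4 led without T3 at 37.5% ± 5.32 and had 37.0% ± 2.79 with it. The shares of all families are given as values, with no test of their own, and a rise of 1 subtype lowers the shares of the others.

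**Figure D4:**
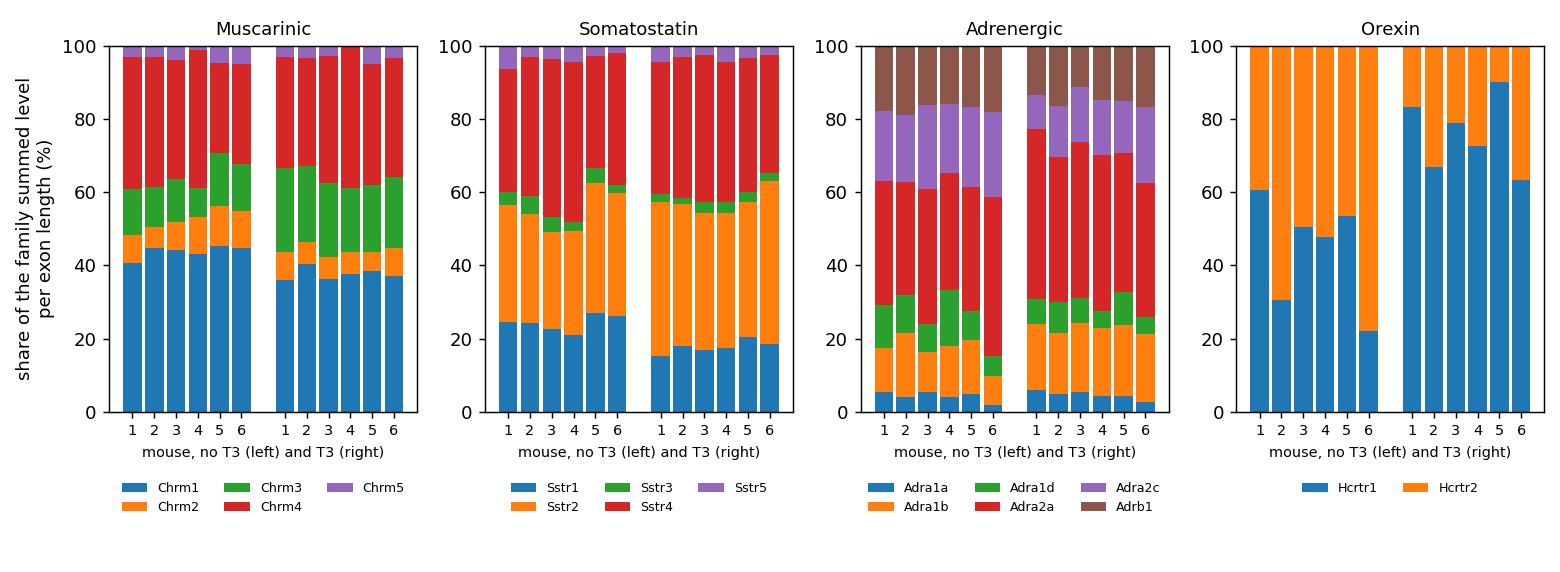
Share of each subtype in the summed level per exon length (percent) of the muscarinic, somatostatin, adrenergic and orexin receptor genes; each bar is 1 culture, mice 1 to 6 without T3 on the left and with T3 on the right. The green Chrm3 segment, the orange Sstr2 segment and the blue Hcrtr1 segment are larger with T3 in 6 of 6 mice.

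Of the remaining peptide receptor genes 2 fell, both among the 6 tested genes outside the named families, while over all genes tested 2.14% were called lower. Mc4r (chr18:66857704-66860506, minus strand), the Gs-coupled melanocortin receptor gene known for its part in appetite, had 2.23 to 5.65 CPM without T3 (median 3.79) and 1.95 to 3.66 CPM with T3 (median 2.26). The untreated culture of mouse 4 was low, within the treated range, and the treated culture of mouse 6 was high. Mc4r fell 1.53-fold (log2 change -0.61 ± 0.16, adjusted p = 0.0252), on 12 to 44 reads per library. The call was lost without mouse 1, 2, 3, 5 or 6 (adjusted p from 0.0547 to 0.111) and with DESeq2 (0.158). Ntsr1 (chr2:180499976-180544980, plus strand), the Gq-coupled neurotensin receptor gene, which marks corticothalamic neurons of the deep cortex, had 70.4 to 102.6 CPM without T3 (median 87.7) and 60.1 to 92.5 CPM with T3 (median 78.5). The groups overlapped widely, while within each mouse the treated culture was the lower. Ntsr1 fell 1.15-fold (log2 change -0.20 ± 0.06, adjusted p = 0.0464). Its call was lost without mouse 1, 2, 3, 5 or 6 (adjusted p from 0.0539 to 0.178), without trend and robust estimation (0.161) and with DESeq2 (0.0767).

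The tachykinin receptor genes Tacr1 and Tacr3, both Gq-coupled, were lower in 6 of 6 mice without passing. Tacr1, the receptor gene for substance P, had 7.72 ± 1.55 and 6.15 ± 0.91 CPM (log2 change -0.30), and Tacr3, the receptor gene for neurokinin B, 16.7 ± 3.05 and 14.1 ± 2.01 CPM (-0.23), each with an adjusted p of 0.161. Grpr, the receptor gene for gastrin-releasing peptide, had a log2 change of 0.53 on 2 to 27 reads per library (adjusted p = 0.199). Cckbr, the cholecystokinin receptor gene, had 5.95 ± 2.27 and 5.18 ± 2.46 CPM (-0.20, adjusted p = 0.584), and mouse 6 was low in both cultures, at 1.67 and 1.58 CPM. Of the neuropeptide Y receptor genes, Npy1r had 22.2 ± 3.93 and 19.8 ± 3.08 CPM (-0.16, adjusted p = 0.439) and Npy2r a log2 change of -0.48 (adjusted p = 0.251). Npy2r passed when mouse 4 was left out (adjusted p = 0.0443). Adcyap1r1 had 268.0 ± 35 and 290.3 ± 25.5 CPM (0.12, adjusted p = 0.233), and the VIP receptor genes Vipr1 and Vipr2 had log2 changes of 0.17 and -0.10. Oprl1 was at 73.2 ± 7.49 and 73.8 ± 9.17 CPM, and the 95% interval of its log2 change ran from -0.11 to 0.12. Oprd1, for the delta opioid receptor, had 3.76 ± 0.82 and 3.56 ± 0.71 CPM (-0.07, adjusted p = 0.867). Npy5r and Galr2 had 3 to 12 and 4 to 10 reads per library and were not tested. Oprm1, Oprk1, Galr1, Galr3, Npy4r, Npy6r and Tacr2 are not in the table.

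**Figure D5:**
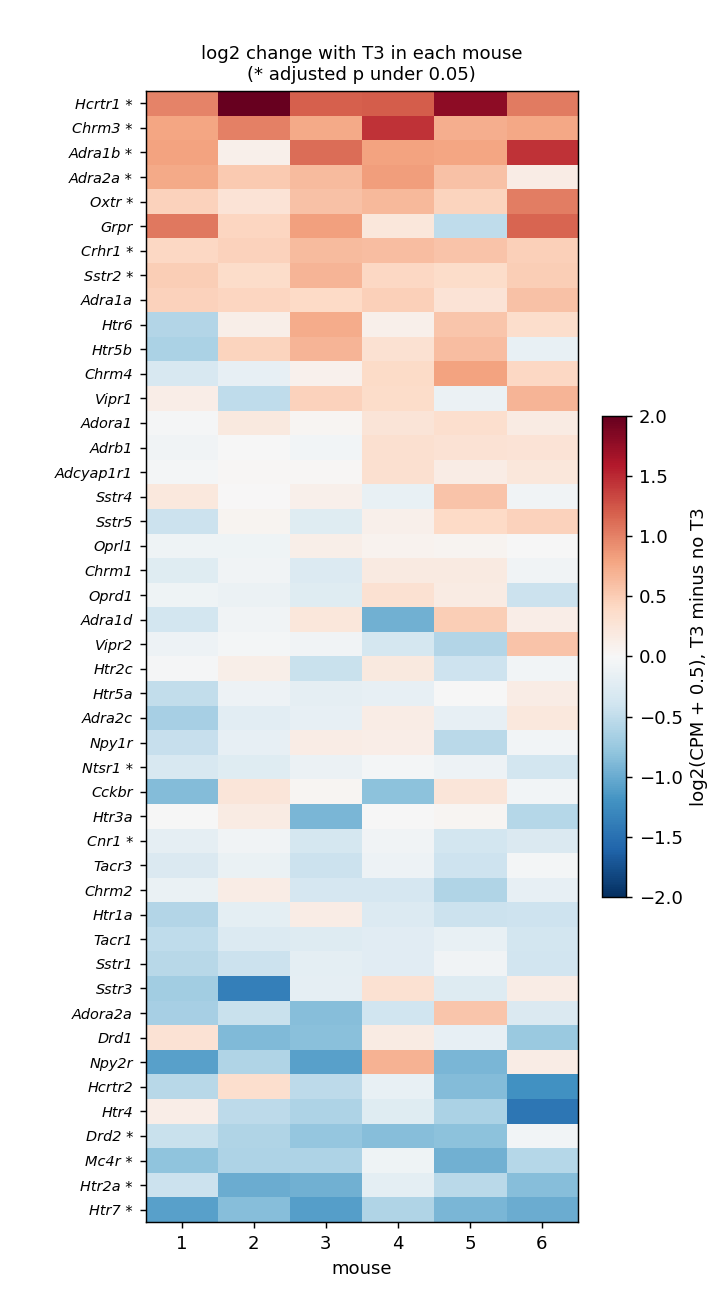
Log2 change with T3 (T3 minus no T3) of the 46 tested receptor genes in each of the 6 mice, ordered by the fitted change; a star marks an adjusted p under 0.05. The 13 starred rows keep 1 colour across all mice, as do the unstarred Adra1a, Sstr1, Tacr1 and Tacr3. The other rows mix red and blue, as Npy2r does with 0.69 in mouse 4 and -1.09 in mouse 1.

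The receptor genes differed more between mice than most genes did. The SD between the 6 untreated cultures on the log2 scale had a median of 0.276 over the 46 tested receptor genes and 0.169 over all tested genes. It was smallest for Adra2a (0.096) and Cnr1 (0.107) and largest for Cckbr (0.735), Grpr (0.684) and Htr2c (0.641). Since genes with few reads vary more by counting alone and 21 of the 46 had a mean under 5 CPM, the part of read number in that difference was not tested.

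RNA of precursor genes for the ligands of several of these receptors was present in the cultures, while the peptides themselves were not measured. Of 13 tested genes for peptide precursors 2 rose and 4 fell. Over all genes tested 5.52% were called, 3.37% higher and 2.14% lower. The lists here and below were chosen with earlier results of these data known, so their counts are a description only. Pnoc, which encodes the precursor of nociceptin, the ligand of the Oprl1 product, rose from 15.0 ± 1.52 to 24.5 ± 3.16 CPM (log2 change 0.68, adjusted p = 0.000106, higher in 6 of 6 mice). Npy, for neuropeptide Y, rose from 23.5 ± 6.45 to 29.6 ± 7.05 CPM (0.34, adjusted p = 0.0268, higher in 5 of 6), a call lost without mouse 3, 4, 5 or 6 (adjusted p from 0.0790 to 0.120). The call of Npy was also lost with DESeq2 (0.0806) and without trend and robust estimation (0.148). Sst, for somatostatin, fell from 192.1 ± 18.8 to 156.9 ± 31.0 CPM (-0.31, adjusted p = 0.0319, lower in 5 of 6), a call lost without mouse 2, 3 or 5 (0.0979 to 0.109) and without trend and robust estimation (0.168). Cck, for cholecystokinin, fell by 0.28 on the log2 scale (adjusted p = 0.00590) and Grp, for gastrin-releasing peptide, by 0.41 (adjusted p = 0.00256), both lower in 6 of 6 mice and both no longer called without trend and robust estimation (adjusted p 0.0777 and 0.0525). Adcyap1, the PACAP gene, fell by 0.38 (adjusted p = 0.0472), a call lost without mouse 1, 2, 3, 5 or 6 (0.0763 to 0.132). It was also lost with DESeq2 (0.209) and without trend and robust estimation (0.0782). The genes of orexin (Hcrt), oxytocin (Oxt) and corticotropin-releasing hormone (Crh), whose receptor genes rose, are not in the table, and neither is Vip.

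Of 11 tested genes for the supply and removal of amines, acetylcholine and adenosine 2 rose and none fell. Nt5e, whose product makes adenosine outside the cell, rose from 3.25 ± 0.41 to 5.09 ± 0.79 CPM (log2 change 0.57, adjusted p = 0.0236), and Ache, for the enzyme that breaks down acetylcholine, by 0.21 (adjusted p = 0.0401). The call of Nt5e was lost without mouse 1, 2, 3 or 6 (adjusted p from 0.0502 to 0.102) and that of Ache without mouse 2, 3, 4, 5 or 6 (0.0519 to 0.163). DESeq2 lost both (0.169 for Nt5e and 0.142 for Ache), and Ache was also lost without trend and robust estimation (0.102). Adk, for adenosine kinase, had a log2 change of 0.18 (adjusted p = 0.0977). Of the 21 genes on this list 11 are in the table. Tph2, for the serotonin synthesis enzyme of neurons, is among them at 1.34 ± 0.34 and 1.96 ± 0.22 CPM (log2 change 0.44, adjusted p = 0.211, higher in 6 of 6 mice), as is the vesicular transporter gene Slc18a2 at 6.32 ± 1.28 and 4.94 ± 0.95 CPM (-0.32, adjusted p = 0.274). Th, Ddc, Dbh, Tph1, Chat and the genes of the plasma membrane transporters for serotonin, dopamine and noradrenaline (Slc6a4, Slc6a3 and Slc6a2) are not in the table. Of 7 genes of endocannabinoid enzymes 2 rose, and both encode enzymes that degrade endocannabinoids: Mgll by 0.33 (adjusted p = 0.00894) and Faah by 0.24 (adjusted p = 0.0277). The call of Mgll was lost without trend and robust estimation (0.122) and that of Faah without mouse 3, 4, 5 or 6 (0.0849 to 0.121). Faah was also lost with DESeq2 (0.0774) and without trend and robust estimation (0.121). Abhd12, another hydrolase gene, was at 0.11 (adjusted p = 0.322).

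Downstream of the receptors, none of 11 genes for G protein alpha subunits passed the test, and Gnaz, Gnaq and Gna12 had the smallest p-values, with log2 changes of 0.10, 0.08 and 0.09 (adjusted p from 0.387 to 0.492). Of 11 adenylyl cyclase and phospholipase C beta genes 2 rose: Adcy8, a calcium-stimulated cyclase gene, from 25.0 ± 2.64 to 34.3 ± 5.15 CPM (0.45, adjusted p = 0.00428; 0.0829 without trend and robust estimation), and Adcy2 from 68.0 ± 8.79 to 83.4 ± 11.2 CPM (0.29, adjusted p = 0.00242). Adcy6 had a log2 change of -0.16 (adjusted p = 0.173). Of 7 genes for receptor kinases and arrestins, which switch active receptors off, Grk3 alone passed, falling from 72.0 ± 4.98 to 59.1 ± 2.68 CPM (-0.28, adjusted p = 0.00383); Grk6 and Grk5 were at 0.08 and -0.08. Among 14 phosphodiesterase genes, whose products break down cyclic nucleotides, Pde8b rose by 0.52 (adjusted p = 0.00185), Pde1a fell by 0.34 (adjusted p = 0.00311) and Pde1c fell by 0.53 (adjusted p = 0.0220). The call of Pde1a was lost without trend and robust estimation (0.0946) and that of Pde1c without mouse 3 or 5 (0.0944 and 0.116) and with DESeq2 (0.128).

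T3 receptors bind DNA at the letters AGGTCA, usually as a pair of them, and the promoter sequences of the receptor genes were searched for this half-site on both strands. The windows, from RefSeq on GRCm38.p6, reach from 250 bases before to 50 bases after a transcript's start. AGGTCA stood in 3 of 17 promoters of 12 of the 13 genes that passed the test (17.6%), in 9 of 53 promoters of 41 receptor genes (17%) and in 16.3% of all 32851 promoters. A direct repeat of AGGTCA with 4 bases between stood in 5 of all promoters and in 0 of the 53. The 3 matches are shown because they lie at genes that passed the test, 2 that rose and 1 that fell. Each is the 30 bases around the match, 5′ to 3′ on the strand of the gene, with the half-site in capitals (TGACCT where it lies on the other strand).
Hcrtr1, chr4:130139253-130139282, minus strand: gctccagctgggTGACCTcgagtgcagaca
Oxtr, chr6:112489906-112489935, minus strand: gagaggacaggcAGGTCAgtgccagagtgc
Cnr1, chr4:33924244-33924273, plus strand: ccgcccggcgcgTGACCTccagtgaggtcc
The half-site begins 108 bases before the start of the transcript in Hcrtr1, 98 before it in Oxtr and 8 before it in Cnr1. The GENCODE gene models of Hcrtr1 and Oxtr start further upstream and include these bases, while that of Cnr1 starts downstream of them. The share of promoters with these letters among the genes that passed was close to that of all promoters, and a match is a description of the sequence, not a binding site.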

How the data were processed

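RNA-seq libraries of 6 cultures without and 6 with T3 were analysed. Per the submitters' processing notes, the tools were CASAVA, FastQC, TopHat, Bowtie, HTSeq and edgeR on GRCm38, with no versions in the sources at hand. Per the file headers, the deposited signal of a gene is its TMM-normalized count, here called CPM. All values were whole multiples of 1 read (100% within a tolerance of 0.01 reads), which gave back the reads. Symbols, coordinates and exon lengths came from GENCODE on GRCm38 (14648 of 14801 identifiers had a symbol).

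The test was limma 3.58.1 (R 4.3.3) on log2(CPM + 0.5) blocked by mouse, with robust estimation and a trend of variance on level, two-sided, with Benjamini-Hochberg adjustment over all genes tested and a threshold of 0.05. filterByExpr of edgeR 4.0.16 on the recovered reads kept 13663 genes and removed 1138. The edgeR quasi-likelihood test on the recovered reads called the same 13 receptor genes. The script was tested on simulated data. The pairing is stated in the series' design: the libraries of a mouse deviated together (correlations 0.237 to 0.638), each closest to its own partner. Alternatives were other pseudocounts, filters, scalings and tools, no block, each mouse left out, and, chosen after seeing the data, the untreated library of mouse 4 left out with the mouse as a random effect.

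Every gene the symbol rule matches could be named; of the pathway lists, the genes past the threshold and the 3 with the smallest p; of the cell type lists, summed levels and leading genes. P2ry12, Tmem119, Th, Ddc, Dbh, Tph1, Chat, Slc6a4, Slc6a3, Slc6a2, Hcrt, Oxt, Crh and Vip are named as absent from the table, and Tph2, Slc18a2 and Dcn were named after their values were seen. Members and lists were chosen with earlier results of these data known. A further gene of the rule is not reported here. RefSeq promoters were used for the motif search.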

Additional observations from a re-analysis of the deposited data

Results flagged for a closer look

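In 4 of 92 groups of 6 values, 1 culture stood far from the other 5, where chance alone gives about 1 in 20. Drd1 was at 4.05 CPM in the untreated culture of mouse 5, and the next highest untreated culture was at 2.12 CPM. Htr5b was at 2.69 CPM in the untreated culture of mouse 1, with the next at 1.55 CPM. Mc4r was at 3.66 CPM in the treated culture of mouse 6, with the next at 2.46 CPM. Vipr2 was at 2.60 CPM in the treated culture of mouse 1, with the next at 1.49 CPM. All 4 are genes of few reads, and Mc4r is the only 1 of them that passed the test.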

How the results depend on the processing

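Over 18 alternatives, 199 of 234 values of the 13 called receptor genes kept their direction and call, 35 lost the call and 0 changed sign; Hcrtr1, Chrm3, Adra2a, Sstr2 and Htr7 kept it in all. Pseudocounts, filters, scalings, edgeR and limma-voom called 13 each. DESeq2 called 8 (2 lower). Without trend and robust estimation 13 were called, 11 of them shared, and 337 of all genes (224 higher, 113 lower). Without the replicate block, which ignores the pairing, 6 were called (1 lower) and 178 of all genes (125 higher, 53 lower); Adra1b (adjusted p = 0.0536), Crhr1 (0.0696) and Cnr1 (0.0969) were among those lost. Leaving out each mouse in turn gave 8 to 13 receptor genes, 7 to 8 higher and 1 to 6 lower, and 459 to 854 of all genes (304 to 526 higher, 155 to 328 lower); all lowest counts came without mouse 3, except that of the higher receptor genes, 7 without mouse 2, 3, 4, 5 or 6. Without the untreated library of mouse 4 and with the mouse as a random effect, which changes both choices, 11 receptor genes and 411 of all genes (241 higher, 170 lower; 2.99% of those tested) were called, against 13 (12 shared) and 4.17% of all genes with mouse 4 left out under the block. Of genes not called, 9 of 589 values changed sign: Oprl1 (-0.014 to 0.028 over the mice left out, -0.0039 in the random-effect fit), Adra1d (-0.208 to 0.0816, and 0.0634), Sstr5 (-0.0232 to 0.155) and Oprd1 (-0.145 to 0.0027); 5 passed, Adora1, Hcrtr2 and Npy2r without 1 mouse each, and Adra1a (adjusted p = 0.00858) and Tacr1 (0.0485) without trend and robust estimation. DESeq2 gave no adjusted p for 7 of them. Of 432 values of 24 named pathway genes 366 were unchanged in direction and call, 66 lost the call and 0 changed sign. Adk, Abhd12, Gnaz, Gnaq, Gna12, Adcy6, Grk5 and Grk6 had no call to lose and passed in no alternative, so all 66 losses are among the other pathway genes. Of those, Pnoc, Grk3 and Pde8b kept the call in all. The random-effect fit lost Drd2 (adjusted p = 0.168), Ntsr1 (0.217), Npy (0.387), Sst (0.123), Cck (0.368), Grp (0.499), Adcyap1 (0.0976), Ache (0.559), Mgll (0.147), Faah (0.127), Adcy2 (0.0739), Pde1a (0.184) and Pde1c (0.0944); of these Cck, Grp, Mgll, Adcy2, Pde1a, Ntsr1, Sst, Adcyap1 and Pde1c kept the call with mouse 4 left out under the block. The cause of these differences was not tested. Depth limits the genes under 5 CPM, where 1 read is worth up to 0.186 CPM.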
